A study of Mus musculus with 15 samples.

Results

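The transcripts described here are 51 genes of ribosome production: 50 code for proteins that transcribe, modify and cut ribosomal RNA or assemble the subunits, and 1, Rn45s, is the ribosomal RNA precursor itself. They were chosen by gene symbol. All 51 were among the 17594 genes of the deposited table, and all 51 were among the 11314 genes left by a filter on low values, a normalized read count of at least 10 in at least 3 libraries. By role they fall into 8 genes of the RNA polymerase I machinery, 6 abundant nucleolar proteins, 8 proteins of small nucleolar ribonucleoprotein particles (snoRNPs), 14 factors of the small subunit, 14 factors of the large subunit and the precursor.

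RNA was sequenced from regulatory CD4+ T cells (Treg, which carry the transcription factor Foxp3 and restrain immune responses) and conventional CD4+ T cells (Tconv), sorted from spleens of mice on a C57BL/6 background. The knockout (KO) animals came from a cross of conditional Hpgd knockout mice with FOXP3-Cre-YFP mice, so the recombinase is produced in cells that express Foxp3, and Tconv of the same genotype are not its target. Hpgd codes for hydroxyprostaglandin dehydrogenase, which inactivates prostaglandin E2. The comparison animals are labelled wild-type (WT), and the labels do not say whether they carried the FOXP3-Cre-YFP allele. Of the 15 libraries, 4 were of Treg and 3 of Tconv from WT animals, and 4 of Treg and 4 of Tconv from KO animals. The labels give neither age nor sex, nor which samples came from 1 animal. Sample numbers next to each other mostly name 1 Treg and 1 Tconv library, and whether such neighbours share an animal was not tested.

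Libraries held between 2.64 and 11.1 mega-reads (M) assigned to genes, and KO libraries were mostly the shallower, at 2.64 to 4.71 M in Treg KO against 6.43 to 10.0 M in Treg WT. Foxp3 lay between 3314 and 4800.3 normalized reads in Treg and between 14.4 and 69.5 in Tconv, so it matched the cell type labels. Hpgd had 1 read in 1 Treg WT library and 0 in the other 14, so the knockout cannot be checked in these values. Ddx3y, a Y-linked gene, was read in all 7 WT libraries and in 0 of the 8 KO libraries, while Xist, made by the silenced X chromosome in females, lay between 8644 and 19007 in KO and at 5.52 or less in WT. Genotype, sex and the numbering of the samples (483 to 490 in WT, 574 to 581 in KO) therefore cannot be told apart in any KO against WT value below.

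Ribosomes are made in the nucleolus. RNA polymerase I transcribes a long precursor from repeated ribosomal DNA, snoRNPs guide methylation and pseudouridylation of this RNA, and successive sets of assembly factors fold it, cut it and send the small and large subunits to the cytoplasm. The transcription factor Myc is known to drive many of these genes, and lymphocytes enlarge their nucleoli when they are activated and divide.

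Promoters of the members were read from a RefSeq table of 250 bases before to 50 bases after each gene start (GRCm38.p6), which held 46 of the 51. Npm1, Rrp12, Fbl, Bop1 and Rn45s had no entry. The E-box CACGTG, the letters bound by Myc and related factors, stood in 9 of the 46 promoters (19.6%), in 1035 (12.02%) of those of the 8614 tested genes with an entry and in 8.09% of the whole table. The GC box GGGCGG, searched on both strands, stood in 36 of the 46 (78.3%), against 69.2% of tested genes and 38.2% of the table. The members with the E-box were Rrn3, Mybbp1a, Imp4, Utp20, Wdr43, Tsr1, Pes1, Nop2 and Nmd3. Printed here, 5′ to 3′ in the direction of transcription, are Imp4 (chr1:34439579-34439878, plus strand) and Pes1 (chr11:3963725-3964024, plus strand), the only E-box members that changed between Treg of the 2 genotypes, beside Ncl (chr1:86359406-86359705, minus strand), which rose, and Rrp9 (chr9:106477059-106477358, plus strand), which fell most among the protein-coding members. Capitals mark the E-box in Imp4, at -121 from the start, and in Pes1, at 3. In Ncl they mark 3 GC boxes at -113, -87 and -72, written as the complement CCGCCC. Rrp9 holds neither set of letters in this window.
Imp4: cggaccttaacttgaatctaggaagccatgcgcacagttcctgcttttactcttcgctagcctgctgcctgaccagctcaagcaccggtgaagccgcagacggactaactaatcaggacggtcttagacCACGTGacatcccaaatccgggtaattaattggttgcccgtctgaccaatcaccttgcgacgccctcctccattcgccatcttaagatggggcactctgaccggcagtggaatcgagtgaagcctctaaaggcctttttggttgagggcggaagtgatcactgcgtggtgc
Pes1: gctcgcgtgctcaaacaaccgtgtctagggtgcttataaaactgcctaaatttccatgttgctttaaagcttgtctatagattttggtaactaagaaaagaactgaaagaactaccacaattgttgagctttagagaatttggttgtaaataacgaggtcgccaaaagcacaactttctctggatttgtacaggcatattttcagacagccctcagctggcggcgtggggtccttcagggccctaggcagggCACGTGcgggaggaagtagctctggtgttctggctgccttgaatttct
Ncl: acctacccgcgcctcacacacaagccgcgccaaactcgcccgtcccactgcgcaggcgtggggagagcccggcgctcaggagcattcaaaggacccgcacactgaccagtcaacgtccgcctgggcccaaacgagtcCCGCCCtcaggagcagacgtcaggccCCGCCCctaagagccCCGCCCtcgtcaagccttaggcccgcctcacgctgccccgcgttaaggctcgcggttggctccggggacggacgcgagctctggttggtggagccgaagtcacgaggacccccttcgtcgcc
Rrp9: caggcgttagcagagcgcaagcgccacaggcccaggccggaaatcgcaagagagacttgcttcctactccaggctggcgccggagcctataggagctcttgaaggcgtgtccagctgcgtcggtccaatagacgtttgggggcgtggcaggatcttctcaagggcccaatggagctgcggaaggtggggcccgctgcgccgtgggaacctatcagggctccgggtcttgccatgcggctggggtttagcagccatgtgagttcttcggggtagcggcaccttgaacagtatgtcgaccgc

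Of the 9 members with the E-box, 0 rose and 2 fell (22.2%) in Treg KO against Treg WT, with a median log2 fold change of -0.05. Of the 37 without it, 2 rose (5.41%) and 7 fell (18.9%), with a median of -0.00. Of all genes tested 10.4% rose and 11.1% fell. A match of letters is a description of the window and shows no binding.

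The precursor Rn45s was lower in KO than in WT in both cell types. In Treg WT the 4 libraries held 10974, 16031, 13785 and 11968 normalized reads. In Treg KO they held 9349.9, 10272, 5379.9 and 5832, so that every Treg KO library lay below every Treg WT library and 2 of the 4 lay far below. The change was -0.82 ± 0.20 on the log2 scale (SE; 1.76-fold lower; limma, Benjamini-Hochberg adjusted p = 0.0117).

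In Tconv WT the values were 12446, 17597 and 17788. In Tconv KO they were 6482, 7286, 6748 and 5168, again with no overlap between the groups. The change was -1.30 ± 0.22 (SE; 2.47-fold lower; limma, adjusted p = 0.0106), and Rn45s was the only member that changed in Tconv by this test. It lost the call without Tconv WT replicate 2 (adjusted p = 0.0672), without Tconv WT replicate 3 (0.0822) and with no filter on low values (0.0526). The test of the difference between the 2 cell types gave 0.49 ± 0.30 (SE; limma, adjusted p = 0.667), so a larger change in Tconv than in Treg was not shown.

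**Figure D1:**
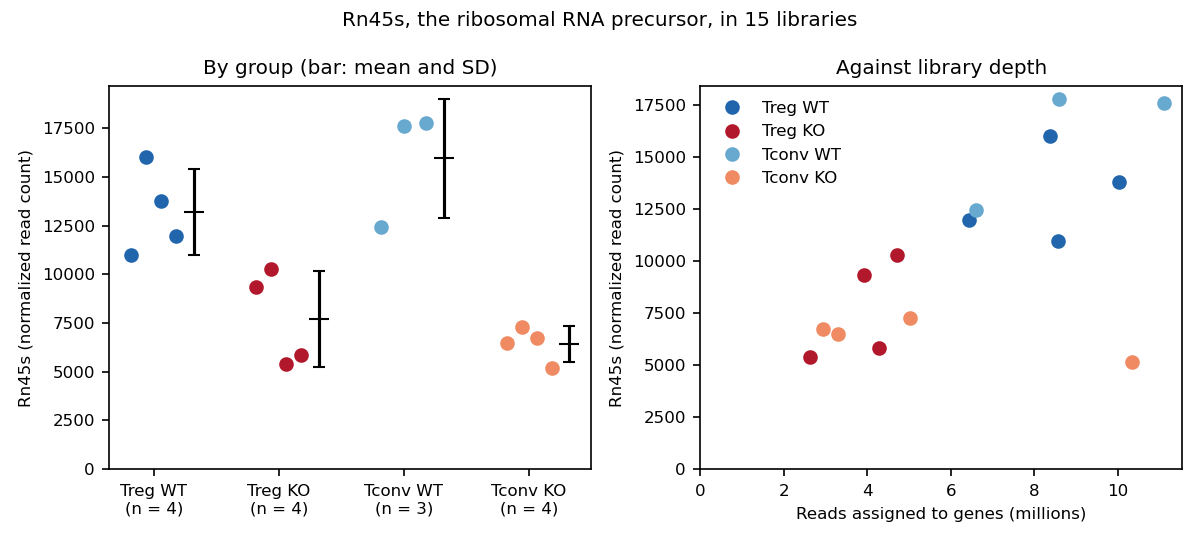
Normalized read count of Rn45s in each library by group, with mean and SD (left), and against the reads assigned to genes in mega-reads (right). All KO libraries lie below all WT libraries of their cell type. The lowest value is in the deepest library in Tconv KO, in the shallowest in Treg KO and Tconv WT, and in neither in Treg WT.

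As a share of all assigned reads, Rn45s made up 0.228 ± 0.039% (SD, n = 4) in Treg WT, 0.135 ± 0.043% (n = 4) in Treg KO, 0.270 ± 0.053% (n = 3) in Tconv WT and 0.111 ± 0.016% (n = 4) in Tconv KO. It ranked between 7 and 24 among all genes by value in the WT libraries and between 23 and 99 in the KO libraries. In Tconv KO the share was 0.0900% in replicate 4, at 10.3 M reads, and 0.113 to 0.127% in the other 3 libraries, at 2.95 to 5.03 M. In Treg KO the lowest share was in the shallowest library, 0.0947% in replicate 3 at 2.64 M. Tconv WT was alike, with 0.209% in replicate 1 at 6.60 M. In Treg WT the lowest share was 0.187% in replicate 1, at 8.57 M. The part of depth in these values was not tested. With all libraries thinned to 1 depth the log2 fold changes were -0.82 in Treg and -1.29 in Tconv.

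The library kit named in the labels selects RNA by its poly(A) tail, which the precursor lacks, so the Rn45s reads are those that came through that selection. Lars2, a mitochondrial leucyl-tRNA synthetase whose mouse gene holds a stretch resembling ribosomal RNA, was lower too, at 941 ± 33.1 (SD, n = 4) normalized reads in Treg WT and 480 ± 75.6 (n = 4) in Treg KO, a log2 fold change of -0.98 ± 0.18 (SE; limma, adjusted p = 0.00255). Its change in Tconv was -0.63 ± 0.20 (SE; limma, adjusted p = 0.198). Between Treg and Tconv of KO animals Lars2 passed as lower in Treg, by -0.71 (log2), while Rn45s differed by 0.22 and did not pass. Whether carry-over of RNA without a tail differed between the groups was not tested. Reads of the precursor come from many near-identical copies, and how the authors counted such reads is unstated in the sources used here, so the level of Rn45s is uncertain. In bulk RNA, fewer cells of a type and less RNA per cell cannot be told apart, for this and every gene below.

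Between Treg of the 2 genotypes, 2 of the 51 members rose in KO (3.92%, beside 10.4% of all genes tested) and 13 fell (25.5%, beside 11.1%). In either direction 15 changed, beside 21.5% of all genes, and 36 did not pass. The median log2 fold change was -0.06 over the members and -0.00 over all genes. Those that rose were Ncl and Nop58. The 13 that fell were Ubtf, Fbl, Rrp9, Imp3, Imp4, Rrp12, Nob1, Bop1, Pes1, Noc2l, Ddx18, Ebna1bp2 and Rn45s. The summed level of the 50 protein-coding members was 27315 ± 864 (SD, n = 4) in Treg WT and 27529 ± 1135 (n = 4) in Treg KO, with overlapping groups.

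**Figure D2:**
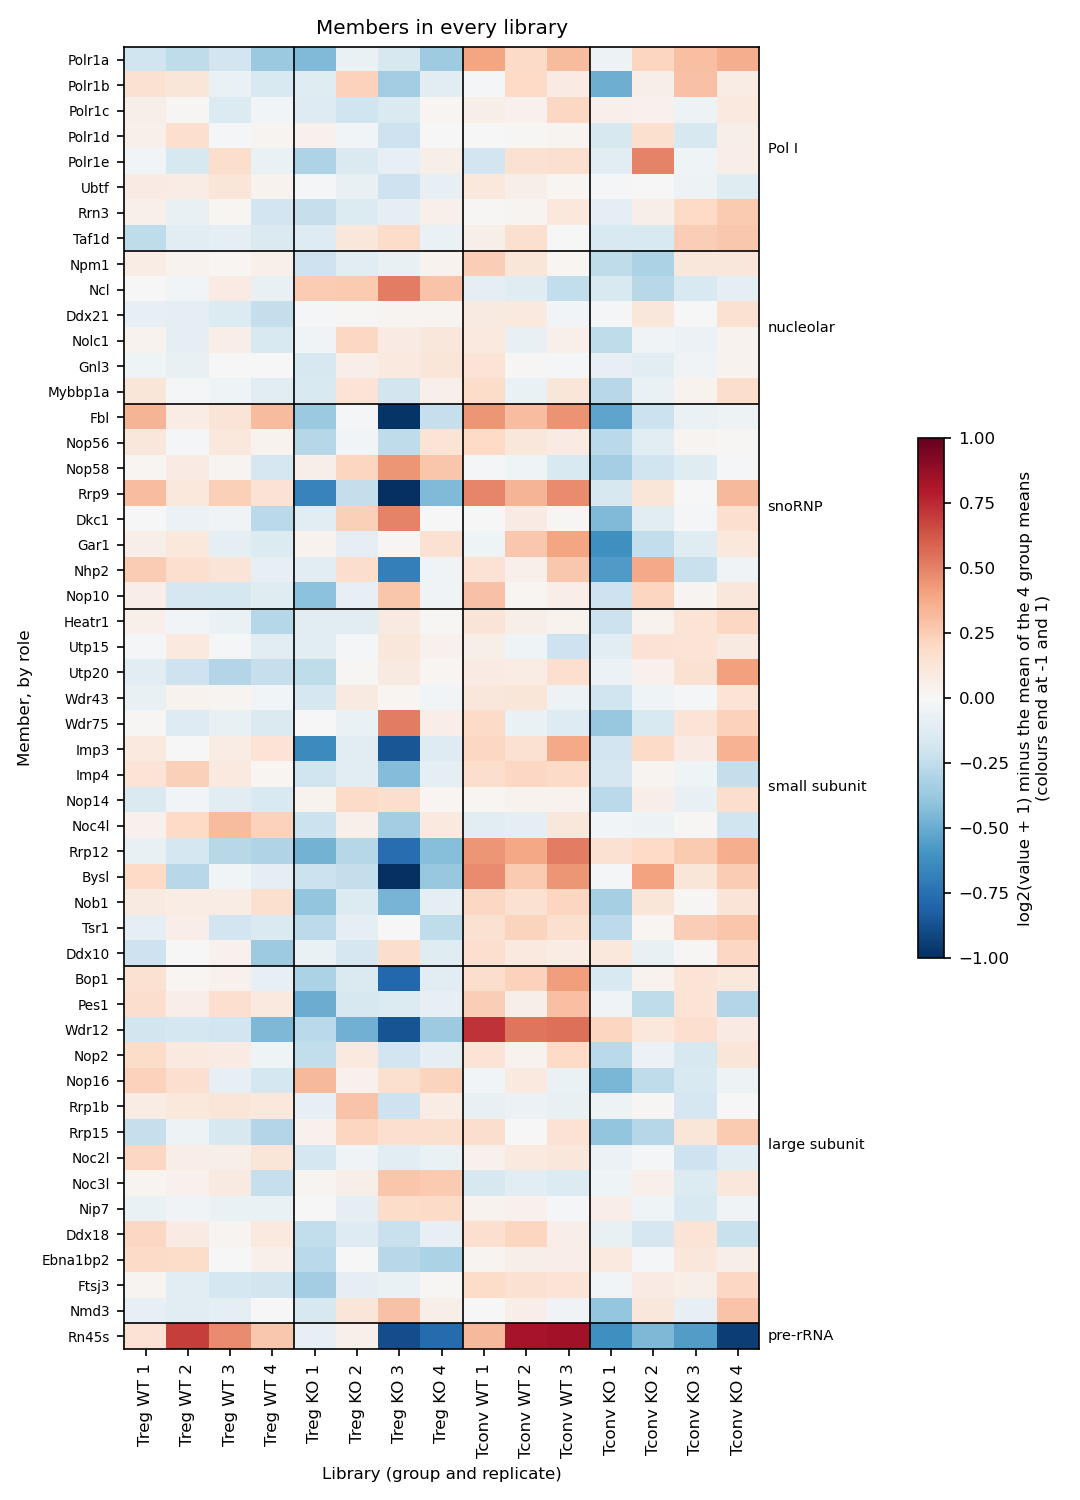
Log2(value + 1) of each member in each of the 15 libraries, minus the mean of the 4 group means for that member, ordered by role. Rn45s is red in WT and mostly blue in KO, Rrp12, Wdr12 and Polr1a differ between Treg and Tconv, and most other members stay near 0.

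Among the polymerase I genes, 1 of 8 fell (12.5%, beside 11.1% of all genes tested) and 0 rose (beside 10.4%). Ubtf, which binds ribosomal DNA along its length and keeps it open for transcription, held 1776, 1764, 1818 and 1711 normalized reads in Treg WT. In Treg KO it held 1663, 1588, 1448 and 1585. The groups did not overlap, but the change was small, -0.17 ± 0.06 (log2, SE; limma, adjusted p = 0.0401).

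Polr1a, the largest subunit of the enzyme, was at 559 ± 32.5 (SD, n = 4) in Treg WT and 561 ± 67.6 (n = 4) in Treg KO, a log2 difference of -0.00 ± 0.10 (SE). Rrn3, the initiation factor that brings the enzyme to the promoter, differed by -0.05 ± 0.09 (SE), and neither passed. The second largest subunit Polr1b, the subunits Polr1c and Polr1d shared with polymerase III, the subunit Polr1e and the promoter factor Taf1d did not pass either. The log2 fold changes of the 8 genes ran from -0.17 to 0.18, so the Rn45s difference stood beside no change past the threshold in the subunits of the enzyme.

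Of the 6 abundant nucleolar proteins, 1 rose (16.7%, beside 10.4% of all genes tested) and 0 fell (beside 11.1%). Ncl (nucleolin, which binds the precursor and helps its transcription and folding) held 4134, 4072, 4399 and 3951 normalized reads in Treg WT. In Treg KO it held 4944, 4972, 5908 and 5048, all above every WT library. The rise was 0.33 ± 0.07 (log2, SE; 1.26-fold; limma, adjusted p = 0.0062).

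Npm1 (nucleophosmin, a chaperone of the outer nucleolus) differed by -0.14 ± 0.09 (log2, SE; limma, adjusted p = 0.316). Ddx21, an RNA helicase that works on the polymerase I transcript, was near the threshold, at 1685 ± 80.7 (SD, n = 4) in Treg WT and 1871 ± 27.3 (n = 4) in Treg KO, a difference of 0.15 ± 0.06 (SE; limma, adjusted p = 0.0742). Nolc1, a chaperone of snoRNPs, Gnl3 (nucleostemin) and Mybbp1a did not pass.

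Of the 8 snoRNP proteins, 1 rose (12.5%, beside 10.4% of all genes tested) and 2 fell (25%, beside 11.1%). Rrp9, a protein specific to the U3 particle that directs the early cuts of the precursor, held 252, 219, 239.6 and 225 normalized reads in Treg WT. In Treg KO it held 128, 172, 73.3 and 150, without overlap and with the lowest value in replicate 3, the shallowest library. Its change of -0.90 ± 0.19 was the largest among the protein-coding members in this comparison (log2, SE; 1.87-fold lower; limma, adjusted p = 0.00579).

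Fbl (fibrillarin, the methyltransferase of C/D particles) was at 404 ± 37.0 (SD, n = 4) in Treg WT and 269.8 ± 70.7 (n = 4) in Treg KO, a fall of -0.62 ± 0.16 (log2, SE; limma, adjusted p = 0.0162). Nop58, which sits beside Fbl in the same C/D particles, went the other way. It held 561, 585, 565 and 494 normalized reads in Treg WT and 577, 644, 754 and 671 in Treg KO, so the groups overlapped, and the rise of 0.26 ± 0.09 only just passed (log2, SE; limma, adjusted p = 0.0491). Nop56, the partner of Nop58, and the 4 H/ACA proteins Dkc1 (the pseudouridine synthase), Gar1, Nhp2 and Nop10 did not pass. Dkc1 lies on the X chromosome and differed by 0.25 ± 0.13 (log2, SE; limma, adjusted p = 0.193).

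Of the 14 small subunit factors, 4 fell (28.6%, beside 11.1% of all genes tested) and 0 rose (beside 10.4%). Imp4, part of the complex that holds U3 on the precursor, held 415, 446, 404 and 382 normalized reads in Treg WT. In Treg KO it held 328, 348, 278 and 354, all below the WT libraries, a change of -0.33 ± 0.09 (log2, SE; limma, adjusted p = 0.0136). Imp3 of the same complex fell by 0.51 ± 0.15 (SE; limma, adjusted p = 0.0301).

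Nob1, the nuclease that makes the final cut of the small subunit RNA, fell by 0.37 ± 0.11 (log2, SE; limma, adjusted p = 0.0241). Rrp12, a factor of subunit export, held 251, 234, 218 and 214 normalized reads in Treg WT and 190.04, 216, 155 and 197 in Treg KO, with overlap, and fell by 0.28 ± 0.10 (SE; limma, adjusted p = 0.0498). Noc4l, the partner of Nop14, was just outside the threshold at -0.30 ± 0.11 (SE; limma, adjusted p = 0.0534). The early factors Heatr1, Utp15, Utp20, Wdr43, Wdr75, Nop14 and Ddx10 and the later factors Bysl and Tsr1 did not pass, with log2 fold changes from -0.48 (Bysl) to 0.21 (Wdr75).

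Of the 14 large subunit factors, 5 fell (35.7%, beside 11.1% of all genes tested) and 0 rose (beside 10.4%). Ebna1bp2, an early assembly factor of the large subunit, held 377, 374, 329 and 342 normalized reads in Treg WT. In Treg KO it held 273, 329, 271 and 265, of which replicate 2 lay just under the lowest WT library and the others well below. The change was -0.32 ± 0.08 (log2, SE; limma, adjusted p = 0.0103).

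Pes1 and Bop1, which form the PeBoW complex with Wdr12, fell by 0.34 ± 0.11 (log2, SE; limma, adjusted p = 0.033) and 0.37 ± 0.12 (SE; limma, adjusted p = 0.0447). Wdr12, their partner, differed by -0.24 ± 0.13 (SE; limma, adjusted p = 0.177). The assembly factor Noc2l fell by 0.21 ± 0.06 (SE; limma, adjusted p = 0.0208) and the helicase Ddx18 by 0.27 ± 0.08 (SE; limma, adjusted p = 0.0278). The RNA methyltransferases Nop2 and Ftsj3, the export adaptor Nmd3 and the factors Nop16, Rrp1b, Rrp15, Noc3l and Nip7 did not pass.

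**Figure D3:**
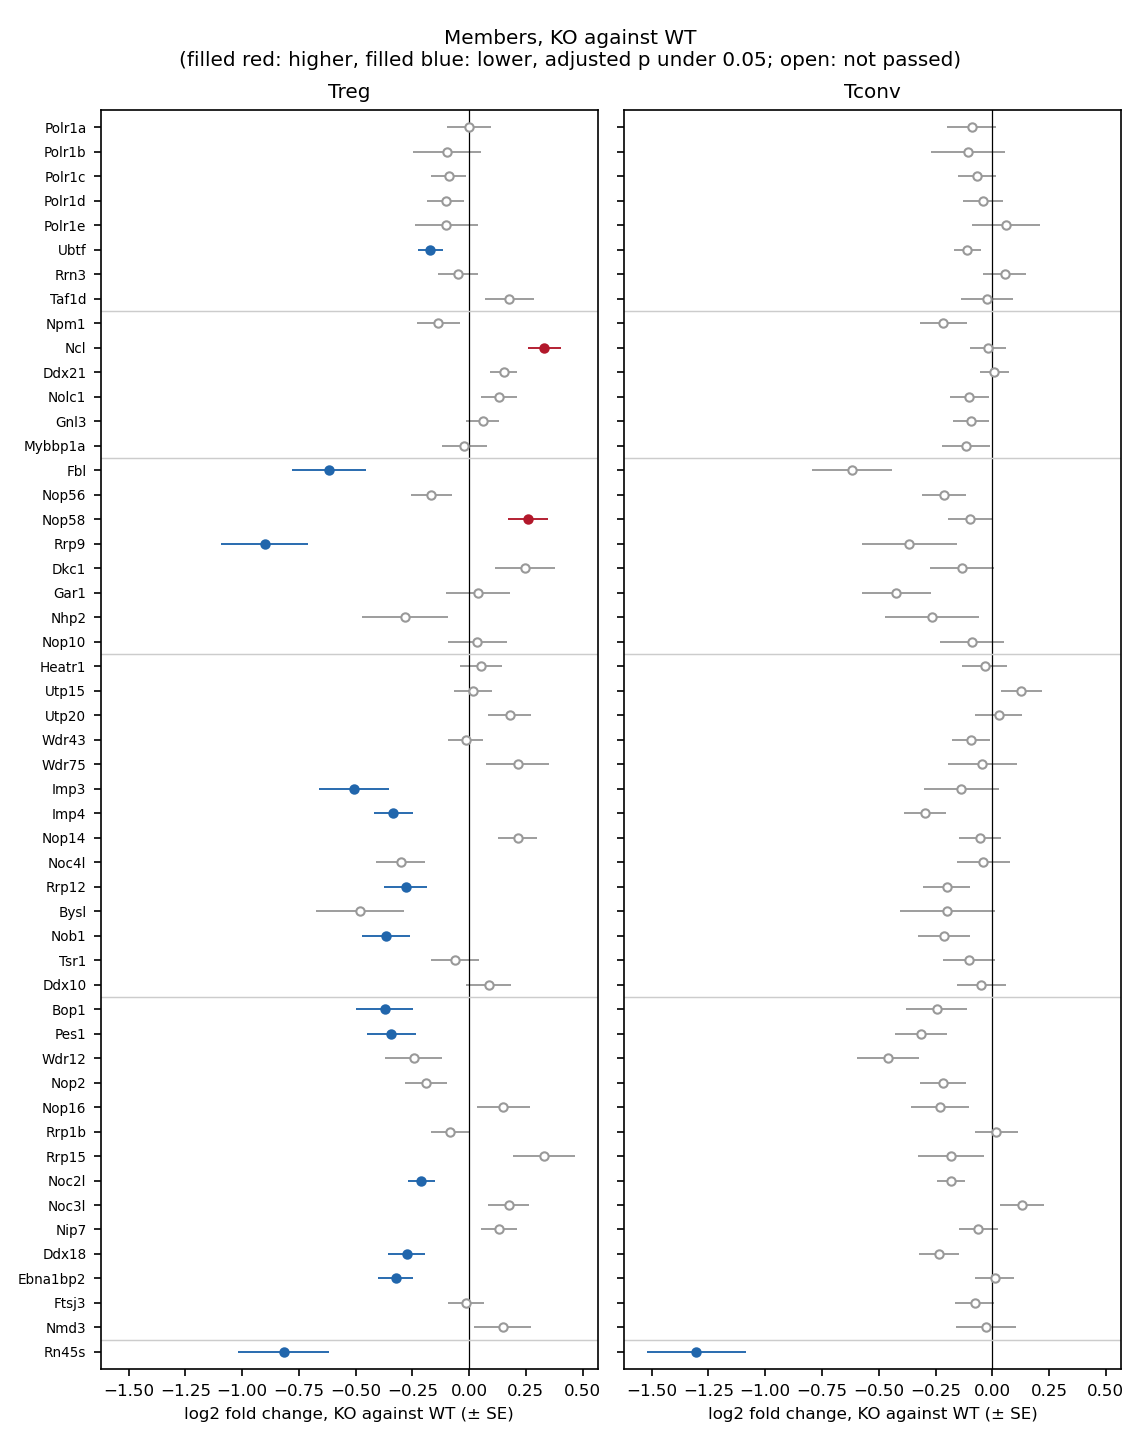
Log2 fold change of each member, KO against WT, with its standard error, in Treg (left) and Tconv (right). In Treg 2 members are filled red and 13 blue (adjusted p under 0.05), and in Tconv only Rn45s is filled.

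Many of these calls depended on single libraries. Ncl, Rrp9, Ebna1bp2 and Rn45s passed under every alternative that could be run for them, and the other 11 did not. The 13 that fell became 4 without Treg WT replicate 1, 8 without Treg WT replicate 2 or 3, 5 without Treg WT replicate 4, 6 without Treg KO replicate 1 and 7 without Treg KO replicate 3. The count was 14 without Treg KO replicate 2, and 13 without Treg KO replicate 4, of which 11 were the same genes. Of all genes tested, 2431 passed in either direction with every library and 1394 to 2741 without single libraries. The 2 that rose became 1 on leaving out any Treg library but Treg KO replicate 1.

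Beside these changes stood the base composition of the genes. The transcripts of the members that fell had a median GC content of 55.4% (12 with a value, 47.6 to 59.8%), against 42.4% for Ncl and Nop58, 48.6% for the 36 that did not pass and 50.3% for all genes tested. Across the 50 members with a value, GC content and log2 fold change in Treg had a Pearson r of -0.65 and a Spearman rho of -0.64, and across 11221 genes tested r was -0.37 and rho -0.52. These are correlations across genes that share the same libraries and are not independent replicates. In the highest of 5 equal bins of genes by GC content 28.4% fell, with a median log2 fold change of -0.32, and 4 of 5 members there fell, with a median of -0.37. In the lowest bin 2.18% of genes and 0 of 10 members fell. With the trend on GC content removed in each library, 7 members fell, of which 6 were among the 13 (Rrp9, Fbl, Imp4, Pes1, Ddx18 and Ebna1bp2) and the other was Npm1. Ncl still rose. Rn45s has no GC value in the annotation and could not enter.

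**Figure D4:**
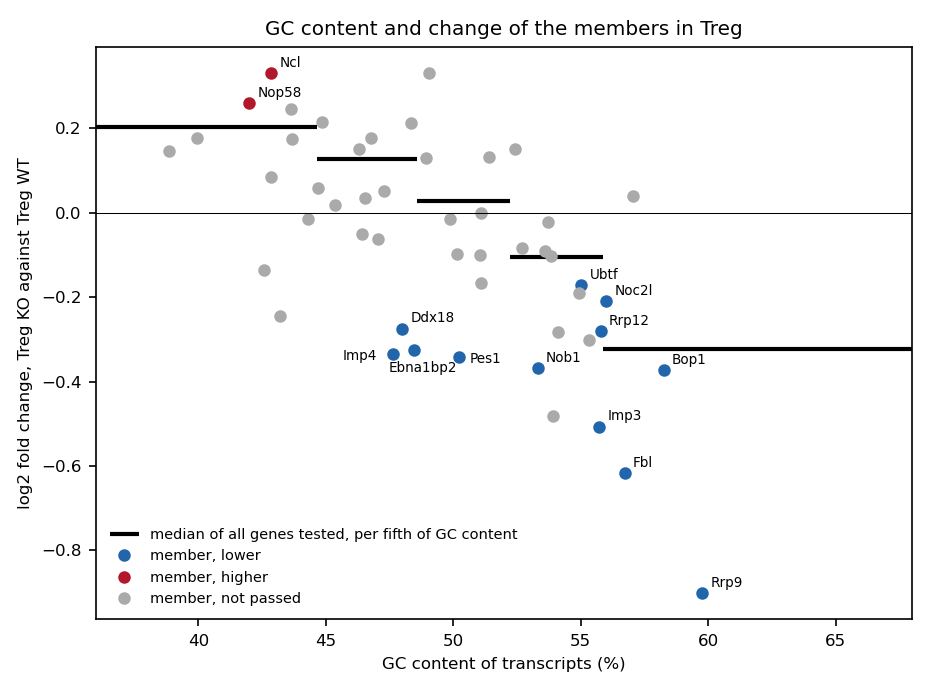
Log2 fold change of 50 members in Treg KO against Treg WT, by the GC content of their transcripts in percent, with the median of all genes tested in each of 5 bins of GC content as bars. Members above 55% GC lie mostly below 0, as the median of all genes does there. Of the members shown that fell, Noc2l lies above the bar of its bin and the others lie below theirs.

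Some members also host small nucleolar RNAs. Of the 50 with a position, 8 (16%) held small nucleolar RNA genes inside them, against 2.08% of 11221 genes tested: Taf1d with 8, Nop56 with 5, Nop58 with 4, Ncl, Gnl3 and Wdr43 with 3 each, Tsr1 with 2 and Dkc1 with 1. Of these 8, Ncl and Nop58 changed between Treg of the genotypes, both upward, which is 25% beside 21.5% of all genes tested in either direction. In addition, 13 members share exon sequence with a tested gene on the opposite strand, and whether counting used the strand is unstated in the sources used here. The share of all genes with such an overlap is not given here. Rrp9 overlaps Parp3, which fell by 0.39 ± 0.13 (log2, SE; limma, adjusted p = 0.04) in Treg KO, and Bop1 overlaps Mroh1, which fell by 0.42 ± 0.13 (SE; limma, adjusted p = 0.0372). Other overlapping genes passed beside members that did not. Srr rose by 0.75 ± 0.19 (limma, adjusted p = 0.0143) beside Tsr1, and Pbrm1 by 0.25 ± 0.08 (adjusted p = 0.0382) beside Gnl3. Ccnd3 fell by 0.56 ± 0.12 (limma, adjusted p = 0.00492) beside Bysl. Reads of such pairs cannot be assigned with certainty, so Rrp9 and Bop1 are uncertain to that extent.

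In Tconv, 0 members rose (beside 0.292% of all genes tested) and 1, Rn45s, fell (1.96%, beside 0.389%, and 0.681% in either direction). At an unadjusted p under 0.05 there were 10 members (19.6%, beside 12% of all genes). With edgeR 0 rose and 1 fell (beside 0.468% of all genes), and with DESeq2 0 rose and 3 fell (beside 1.16%), Rn45s, Fbl and Wdr12. The median log2 fold change of the members was -0.10, against 0.00 for all genes tested. A negative sign was held by 43 of the 51, beside 5597 of the 11314 genes tested. Members share the same libraries, so their signs are not independent replicates.

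Fbl held 458 ± 25.0 (SD, n = 3) normalized reads in Tconv WT and 301 ± 44.0 (n = 4) in Tconv KO, a difference of -0.62 ± 0.18 that did not pass (log2, SE; limma, adjusted p = 0.158). Wdr12 was at 177, 155 and 157 in Tconv WT and at 124, 115, 120.3 and 113 in Tconv KO, without overlap, and its difference of -0.46 ± 0.14 did not pass either (SE; limma, adjusted p = 0.179). For Ncl the difference was -0.02 ± 0.08 (SE).

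The KO effect was not shown to differ between Treg and Tconv for any member. The interaction test called 0 of 51 higher and 0 lower (beside 0.0354% and 0.115% of all genes tested), also with edgeR and DESeq2, and 7 members had an unadjusted p under 0.05 (13.7%, beside 8.51% of all genes). Ncl came nearest, with a difference of 0.35 ± 0.11 between the 2 log2 fold changes (SE; limma, adjusted p = 0.316). For Fbl the effects in the 2 cell types differed by -0.00 ± 0.24 (SE).

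Between cell types of WT animals, 0 members were higher in Treg than in Tconv (beside 10.0% of all genes tested) and 6 were lower (11.8%, beside 8.06%, and 18.1% in either direction): Polr1a, Ddx21, Utp20, Rrp12, Wdr12 and Ftsj3. At an unadjusted p under 0.05 there were 8 members (15.7%, beside 29.6% of all genes), and 0 were higher with edgeR or DESeq2. In KO animals 3 were higher (5.88%, beside 15.8%), Ncl, Nop58 and Nop16, and 8 were lower (15.7%, beside 15.6%, and 31.4% in either direction), Polr1a, Rrp9, Imp3, Rrp12, Bysl, Bop1, Wdr12 and Ebna1bp2. Polr1a, Rrp12 and Wdr12 were lower in both, which is 3 of the 6 and 3 of the 8. How many of all genes tested were lower in both is not given here, so this overlap cannot be read as a trait of the members. The 2 comparisons share no library.

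Polr1a held 580.4, 559, 584 and 513 normalized reads in Treg WT, against 873, 759 and 829 in Tconv WT. The KO values were 490.3, 637, 597 and 520.2 in Treg and 643, 774, 818 and 858 in Tconv. Treg and Tconv did not overlap in either genotype, and the log2 differences were -0.55 ± 0.11 in WT (SE; limma, adjusted p = 0.00158) and -0.46 ± 0.10 in KO (adjusted p = 0.00227). The other polymerase I subunits did not pass in either genotype.

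Wdr12 of the PeBoW complex held 93.9, 94.5, 93.6 and 78.0 normalized reads in Treg WT, against the Tconv WT values of 155 and more given above. In KO it held 88.5, 76.4, 58.2 and 82.9 in Treg, below all 4 Tconv values. The log2 differences were -0.85 ± 0.14 in WT (SE; 1.80-fold lower; limma, adjusted p = 0.000349) and -0.64 ± 0.13 in KO (adjusted p = 0.00136). Its partners Bop1 and Pes1 differed by -0.24 ± 0.13 and -0.08 ± 0.11 in WT and did not pass. In KO Bop1 was lower by -0.37 ± 0.12 (SE; limma, adjusted p = 0.0342), with overlapping groups. Wdr12 overlaps Carf on the opposite strand, and reads of the pair cannot be assigned with certainty. Carf differed between Treg and Tconv by -0.26 ± 0.20 in WT (SE; limma, adjusted p = 0.44) and -0.49 ± 0.19 in KO (adjusted p = 0.0603), and did not pass.

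Rrp12 held 360, 345 and 377 normalized reads in Tconv WT and 294, 303, 317 and 341 in Tconv KO, all above every Treg library. The log2 differences between Treg and Tconv were -0.65 ± 0.10 in WT (SE; 1.57-fold lower; limma, adjusted p = 0.000324) and -0.73 ± 0.10 in KO (1.66-fold lower; adjusted p = 3.97e-05). Polr1a, Rrp12 and Wdr12 kept these calls under every alternative run.

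**Figure D5:**
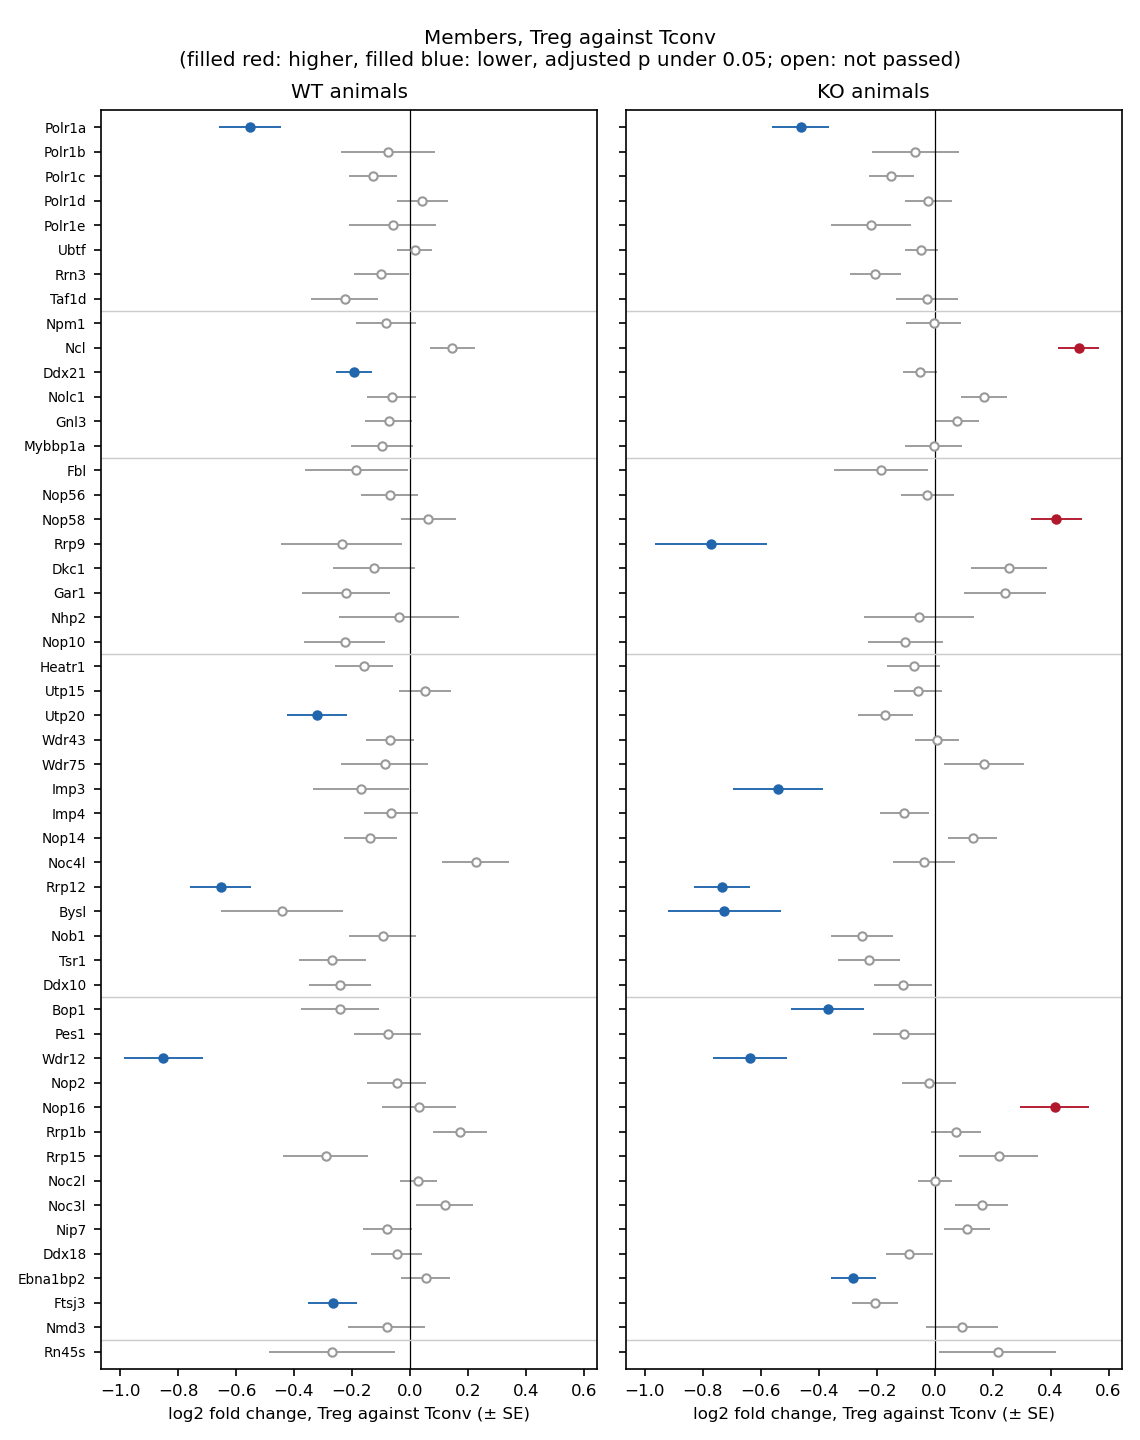
Log2 fold change of each member, Treg against Tconv, with its standard error, in WT animals (left) and KO animals (right). Polr1a, Rrp12 and Wdr12 are filled blue (lower in Treg, adjusted p under 0.05) in both panels, and Ncl, Nop58 and Nop16 are filled red in KO animals only, a difference between genotypes that did not pass the interaction test.

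The remaining WT calls were smaller. Ddx21 held 1746, 1738, 1685 and 1571 normalized reads in Treg WT and 1974, 1984 and 1819 in Tconv WT, a difference of -0.19 ± 0.06 (log2, SE; limma, adjusted p = 0.045). Utp20, an early small subunit factor, was lower by -0.32 ± 0.10 (SE; limma, adjusted p = 0.0425) and the methyltransferase Ftsj3 by -0.27 ± 0.09 (SE; limma, adjusted p = 0.0415). Without Treg WT replicate 2, 3 or 4, or Tconv WT replicate 1 or 2, the count of 6 became 3.

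In KO animals Ncl was higher in Treg, at 3729, 3419, 3729.9 and 3891 normalized reads in Tconv against 4944 and more in Treg, a log2 difference of 0.50 ± 0.07 (SE; 1.41-fold; limma, adjusted p = 9.78e-05). Nop58 was higher by 0.42 ± 0.09 (SE; limma, adjusted p = 0.00217) and Nop16, a large subunit factor, by 0.41 ± 0.12 (SE; limma, adjusted p = 0.0146). Rrp9 was lower in Treg by -0.77 ± 0.19 (SE; limma, adjusted p = 0.00683), Bysl, a small subunit factor, by -0.73 ± 0.19 (adjusted p = 0.0103), Imp3 by -0.54 ± 0.15 (adjusted p = 0.0144) and Ebna1bp2 by -0.28 ± 0.08 (adjusted p = 0.0129). Bysl overlaps Ccnd3 on the opposite strand, which was lower too, by -0.91 ± 0.12 (SE; limma, adjusted p = 3.09e-05). Parp3, which overlaps Rrp9, differed by 0.14 ± 0.13 and did not pass (SE; limma, adjusted p = 0.413). Rn45s did not differ past the threshold between Treg and Tconv, at -0.27 ± 0.22 in WT (SE; limma, adjusted p = 0.459) and 0.22 ± 0.20 in KO (adjusted p = 0.437).

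Other genes of the pathway, 149 factors in 5 lists, changed in both directions. In Treg KO against Treg WT 12 rose (8.05%, beside 10.4% of all genes tested) and 25 fell (16.8%, beside 11.1%), and the median change over the 149 was -0.05 (log2). The lists below are small and stand beside the same shares of all genes. Of 45 large subunit factors 3 rose and 9 fell, among them Senp3, a SUMO protease of the nucleolus, by 0.62 ± 0.08 (SE; limma, adjusted p = 0.00028), and Eif6, which keeps the new large subunit from joining the small one early, by 0.75 ± 0.15 (adjusted p = 0.00352). Of 45 small subunit factors 3 rose and 7 fell, with Trmt112, a partner of RNA methyltransferases, down by 0.44 ± 0.07 (adjusted p = 0.00117) and Krr1 up by 0.26 ± 0.06 (adjusted p = 0.0121). Of 11 snoRNP assembly factors 3 fell, Ruvbl1, Ruvbl2 and Naf1, and of 17 genes of the RNA exosome and trimming 4 rose and 2 fell, with Dis3, its nuclease, up by 0.31 ± 0.08 (adjusted p = 0.0189). Of 31 other genes of polymerases I and III 2 rose and 4 fell, among them Maf1, a repressor of polymerase III, by 0.30 ± 0.06 (adjusted p = 0.00457). Of 9 tested hosts of small nucleolar RNAs 0 passed by limma, with 4 at an unadjusted p under 0.05 (44.4%, beside 36.3% of all genes).

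In Tconv 0 of these 149 rose and 0 fell by limma, with 8 at an unadjusted p under 0.05 (5.37%, beside 12% of all genes). Between Treg and Tconv of WT animals 3 were higher (2.01%, beside 10.0%) and 6 lower (4.03%, beside 8.06%). In KO animals 8 were higher (5.37%, beside 15.8%) and 20 lower (13.4%, beside 15.6%). Nol10 and Exosc8 were higher in Treg in both genotypes, and Polr3b, Emg1, Urb1 and Sdad1 lower.

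Among 19 tested regulators of ribosome production, Myc was higher in Treg than in Tconv. It held 766 ± 59.0 (SD, n = 4) normalized reads in Treg WT and 373 ± 22.4 (n = 3) in Tconv WT, a log2 difference of 1.04 ± 0.19 (SE; limma, adjusted p = 0.0011), and 638 ± 183 (n = 4) in Treg KO and 326 ± 66.5 (n = 4) in Tconv KO, a difference of 0.95 ± 0.18 (SE; limma, adjusted p = 0.000804). Mxd1 and Mxd4, antagonists of Myc, were also higher in Treg, by 1.09 ± 0.16 and 1.12 ± 0.19 in WT. In the same WT comparison 0 members of the ribosome set were higher. The regulators that changed in Treg KO against Treg WT included Mnt, Rps6kb2 and Larp1, which fell.

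Genes of dividing cells were higher in KO beside the members. Of 18 cell cycle genes 15 rose in Treg KO (83.3%, beside 10.4% of all genes tested) and 5 in Tconv KO (27.8%, beside 0.292%). Their summed level was 2562 to 3278 in Treg WT, 4552 to 5259 in Treg KO, 2674 to 2753 in Tconv WT and 3240.2 to 4262 in Tconv KO.

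Markers of other cells the gate could hold were read too. The 7 summed markers of CD8 T and NK cells were 119 to 173 in Treg WT, 103 to 189.9 in Treg KO, 520.2 to 593 in Tconv WT and 523 to 1159 in Tconv KO. Cd8a reached 4 reads and Ncr1 1 read in any library, while Cd8b1 reached 147, Klrb1c 152, Prf1 436 and Eomes 445. Of the 5 tested, Klrb1c, Prf1 and Eomes were lower in Treg than in Tconv of WT animals (60%, beside 8.06% of all genes tested). In KO animals Klrb1c, Gzma, Prf1 and Eomes were lower in Treg (80%, beside 15.6%). In KO against WT 1, Prf1, fell in Treg and 0 passed in Tconv.

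The 7 summed B cell markers were 153 to 229.6 in Treg WT, 218 to 287 in Treg KO, 136 to 183 in Tconv WT and 64.5 to 329 in Tconv KO. Pax5 reached 2 reads and Cd22 331 and Cd79b 124. In KO against WT 0 of 2 tested B cell markers and 0 of 2 myeloid markers passed by limma in either cell type, with 1 B cell marker in each at an unadjusted p under 0.05. Between the cell types, Cd79b passed as higher in Treg than in Tconv, by 3.84 in WT and 3.57 in KO animals (log2). Itgam passed as lower in Treg, by -2.64 in WT and -2.47 in KO. The other tested marker of each list did not pass. Of erythroid and platelet markers 1 was tested, Itga2b, and it fell in Treg KO. Itga2b also passed as lower in Treg than in Tconv of KO animals, by -1.05 (log2), and did not pass between them in WT. Tconv KO replicate 1 had the highest sums of its group for CD8 T and NK cells and for B cells and the lowest sum of the protein-coding members, 24738 against 26735 to 28983 in the other 3. Without it the change of Rn45s in Tconv was -1.31 (log2; limma, adjusted p = 0.0233). The part of these cells in the differences of the members was not tested.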

How the data were processed

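Libraries were made from 10 ng of total RNA, per the labels' protocols. TopHat and the genome build mm10 are named in the submitters' processing notes. Its version, read counting, annotation and strand setting are unstated in the sources used here. The authors' deposited values are a signal made by dividing gene counts by 1 factor per library, and in every column all values were whole multiples of 1 step (100% within a tolerance of 0.001), so whole reads were recovered. Values are called normalized read counts.

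The deposited signal was analysed as log2(value + 1) in R 4.3.3 with limma 3.58.1: 4 group means, 15 libraries, spread moderated along a trend on level, 5 two-sided contrasts. The filter kept 11314 genes that reached 10 in 3 or more libraries. Where Benjamini-Hochberg adjusted p over all of them was under 0.05, genes are said to have passed, to have risen or to have fallen. Fold changes on this scale are slightly understated for low genes. Replicate numbers follow accession order and pair nothing. Nothing says which samples are separate animals, so p-values measure the spread between samples, which may be technical.

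The members and lists were chosen with earlier results of these data known. All members could be named; values per library are given for Rn45s and the 2 members of each role group with the smallest p, fold changes for up to 4 per group and comparison and for Npm1, Ncl, Fbl, Polr1a, Ubtf, Rrn3 and members near the threshold, and other lists are named by up to 3 genes per direction and Myc. Bop1, Wdr12 and Dkc1 in Treg KO against Treg WT, the genes overlapping members and other genes of small counts were named after their values were seen.

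Besides leaving out each library, 9 alternatives were run: edgeR 4.0.16 and DESeq2 1.42.0 on the whole reads, a pseudocount of 8, no filter, TMM scaling, only the groups compared, and removal of a GC trend, and, added after seeing the data, removal of a length trend and thinning to 1 depth. GC content and positions came from GENCODE vM21 (GRCm38), which matched 17346 of 17594 symbols, 695 as older symbols, with 31 ambiguous and 217 unmatched, and 50 of the 51 members. Plots used Python 3.11.15 and matplotlib 3.10.9. The method was tested on simulated data. Some listed genes are not reported here.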

Additional observations from a re-analysis of the deposited data

Results flagged for a closer look

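Among 153 sets of 4 libraries (51 members in 3 groups), 4 held a library far from the others by Dixon's ratio at its 95% critical value, and chance flags about 1 in 20. Ncl was at 5908 in Treg KO replicate 3, the shallowest library, against 4944 to 5048 in the other 3. Ebna1bp2 was at 329 in Treg KO replicate 2, against 265 to 273. Wdr12 was at 78.0 in Treg WT replicate 4, against 93.6 to 94.5. Nip7 was at 233 in Treg WT replicate 2, against 227.5 to 228.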

How the results depend on the processing

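In Treg KO against Treg WT, 1 member rose with edgeR, with no filter, with TMM scaling, with only the groups compared, with the GC trend removed and with thinned reads, and 1 to 2 without single libraries. There 8 fell with only the groups compared, 7 with the GC trend removed, 6 with thinned reads and 4 to 14 without single libraries, and of all genes 1504 passed with the GC trend removed and 1394 to 2741 without single libraries.

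In Tconv KO against Tconv WT, 3 members fell with DESeq2, 0 with no filter and 0 with the GC or length trend removed, where Rn45s could not enter, and 0 to 1 without single libraries. Of all genes 236 passed with DESeq2, 51 with no filter, 32 with only the groups compared, 45 with the length trend removed and 22 to 105 without single libraries. In Treg against Tconv of WT animals, 1 member was higher with only the groups compared and 1 with the GC trend removed. There 12 were lower with only the groups compared, 3 with thinned reads and 3 to 5 without single libraries, and 3990 genes passed with only the groups compared. In KO animals 3 were lower and 2042 genes passed with only the groups compared. In the interaction 91 genes passed with DESeq2, 38 with the GC trend removed and 3 to 23 without single libraries.

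Over all members and comparisons, 4580 values under an alternative were set against the reported call: 424 calls were kept, 126 lost, 31 gained and 0 reversed, and 3999 were calls in neither. The cause was not tested. No scaling moved the median of all genes by 0.1 on the log2 scale. No paired analysis was possible because the labels give no numbers shared between groups. Neighbouring sample numbers may name Treg and Tconv of 1 animal, and a fit on that pairing was not run. At the depth of the smallest library, 2.64 M reads, 6 members fell in Treg KO beside 13 at full depth. Of all genes, 1705 passed in either direction at that depth and 2431 at full depth, so calls were lost outside the members too.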
